A study of Mus musculus with 16 samples.

Results

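Levels of 9 genes of TGF-beta and activin signalling were measured in single cells of end-stage mouse mammary tumours. The genes were taken by name, with earlier results of these data known, from the 19822 genes that passed the filter. They were the TGF-beta ligands Tgfb1, Tgfb2 and Tgfb3, the activin subunits Inhba and Inhbb, the receptors Tgfbr1, Tgfbr2 and Tgfbr3, and the target gene Tgfbi. All 9 were detected, with between 221 UMIs (unique molecular identifiers, each a counted transcript molecule) for Inhbb and 2234 UMIs for Inhba in the cells kept. Another 46 measured genes of the pathway, grouped by role, were set beside them.

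The tumours came from 2 untreated mouse models of triple-negative breast cancer. WB1P mice carry WapCre;Brca1F/F;Trp53F/F, so that both models lose Brca1 and Trp53 where Cre is driven from the Wap promoter, which is active in mammary epithelium. WB1P-Myc mice carry in addition a Myc construct, which per the study's methods sits in the Col1a1 locus, is switched on by Cre and also encodes luciferase. Digested tumours were sorted for live dapi-negative singlets and run through Drop-seq, which counts the 3′ ends of transcripts cell by cell in droplets. For each model 4 droplet fractions of 1 cell suspension were made into libraries, and no fraction is tied to an animal. Each model is therefore treated as 1 sample, the fractions are read as technical spread, and no p-value was computed. The study names 2 mice per model, and how they were divided over suspension and fractions is not given. Model cannot be told apart from animal or from the handling of its cell suspension. Neither the age nor the strain background of the mice is among the labels. The study's methods give an FVB/n background for its tumour models and state that the mice were female.

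TGF-beta is secreted bound to a latency peptide and stored in the matrix on latent TGF-beta binding proteins until integrins, proteases or thrombospondin release it. The active ligand binds the type II receptor Tgfbr2, which recruits the type I receptor Tgfbr1, and the pair phosphorylates SMAD proteins that enter the nucleus; activins, dimers of inhibin beta subunits, use their own type II receptors and the same SMAD branch. In fibroblasts this pathway is known for driving the myofibroblast state with its contractile and matrix genes, and in epithelium for growth arrest and for the switch to mesenchymal traits.

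The 4 HiSeq fractions of WB1P held 256985 to 1918672 UMIs and 65 to 426 kept cells, and those of WB1P-Myc held 3814562 to 4960334 UMIs and 756 to 950 kept cells. In all 1307 WB1P cells (median 1724 UMIs) and 3491 WB1P-Myc cells (median 2358 UMIs) were used. Among kept cells 1 barcode was shared by any of the 28 pairs of libraries. The smallest library, WB1P fraction 1, gave no iCAF-like or myCAF-like cell, so values in these subsets rest on the other 3 WB1P fractions. Clusters were named from marker genes: epithelial-like (673 WB1P and 1312 WB1P-Myc cells), endothelial-like (37 and 72), Schwann-like (0 and 1133), a fibroblast class and an immune class. Since every Schwann-like cell came from WB1P-Myc, that cluster may be this sample rather than a cell type. In the fibroblast class, subsets were named for inflammatory cancer-associated fibroblasts (iCAF-like, 48 WB1P and 109 WB1P-Myc cells), myofibroblastic ones (myCAF-like, 78 and 56) and pericytes (pericyte-like, 41 and 59). Fibroblast clusters 4 and 5 had no name. Genes with the highest fold were Nov and H19 in cluster 4 and the cell-cycle genes Nuf2 and Ckap2l in cluster 5. The immune class held macrophage-like cells (180 and 481), T or NK-like cells (10 and 27) and the unnamed myeloid clusters 2 (187 and 92; Il1r2 and Ifitm1 had the highest fold) and 3 (2 and 99; Pf4 and Ctsl).

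The members are protein-coding genes of 7 chromosomes in the GRCm38 (mm10) annotation. Inhba lies at chr13:16011851-16031621 (+), Inhbb at chr1:119415465-119422248 (-), Tgfb1 at chr7:25687002-25705077 (+), Tgfb2 at chr1:186622792-186705989 (-) and Tgfb3 at chr12:86056745-86079041 (-). Tgfbr1 lies at chr4:47353222-47414931 (+), Tgfbr2 at chr9:116084293-116175360 (-), Tgfbr3 at chr5:107106570-107289629 (-) and Tgfbi at chr13:56609523-56639562 (+). The gene Ttll5 overlaps Tgfb3 on the other strand, and non-coding transcripts run antisense to Tgfb2 (Gm29491) and Inhba (Gm48444). It is not stated whether the counting used strand, so the counts of these 3 genes could hold reads of their overlapping partners. On its own strand Tgfbr3 is overlapped by the unclassified transcripts Gm43422, Gm43423 and Gm42900, from which its reads may not be separable with or without strand.

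Sequences just upstream of the RefSeq start are shown for 3 ligand genes that were higher in myCAF-like cells and for a receptor that was higher in iCAF-like cells. Each is 250 bases long, runs 5′ to 3′ towards the gene and comes from RefSeq on GRCm38.p6. Capitals mark matches, on either strand, to 6 motifs, none of which contains another. The motifs for AP-1 and SMAD factors were TGANTCA, the SMAD palindrome GTCTAGAC and the shorter SMAD element CAGAC. The others were CACGTG, the E-box that Myc family proteins are known to bind, GGGCGG, bound by Sp1 factors, and TATAAA, a core promoter element.
Inhba, chr13:16011601-16011850 (+): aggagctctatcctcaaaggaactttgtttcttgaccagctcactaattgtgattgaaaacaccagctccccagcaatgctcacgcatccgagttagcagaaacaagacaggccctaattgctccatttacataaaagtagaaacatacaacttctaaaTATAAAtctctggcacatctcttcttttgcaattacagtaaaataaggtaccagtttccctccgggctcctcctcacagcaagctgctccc
Tgfb2, chr1:186705990-186706239 (-): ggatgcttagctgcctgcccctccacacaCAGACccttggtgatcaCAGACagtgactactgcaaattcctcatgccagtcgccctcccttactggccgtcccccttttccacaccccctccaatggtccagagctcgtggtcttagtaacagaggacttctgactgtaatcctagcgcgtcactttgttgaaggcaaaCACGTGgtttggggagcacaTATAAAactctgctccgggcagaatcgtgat
Tgfb1, chr7:25686752-25687001 (+): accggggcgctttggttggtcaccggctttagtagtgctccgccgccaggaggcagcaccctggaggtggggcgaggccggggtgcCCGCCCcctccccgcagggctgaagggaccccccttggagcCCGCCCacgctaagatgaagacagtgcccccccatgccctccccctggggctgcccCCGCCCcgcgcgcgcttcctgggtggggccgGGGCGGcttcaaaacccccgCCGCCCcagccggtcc
Tgfbr2, chr9:116175364-116175613 (-): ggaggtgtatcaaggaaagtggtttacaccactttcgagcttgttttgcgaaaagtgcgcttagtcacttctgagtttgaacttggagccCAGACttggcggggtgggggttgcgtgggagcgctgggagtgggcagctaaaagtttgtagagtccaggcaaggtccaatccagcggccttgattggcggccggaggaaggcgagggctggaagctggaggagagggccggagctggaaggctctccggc
The Inhba and Tgfb2 windows each held 1 TATAAA, 91 to 86 bases before the start in Inhba and 31 to 26 before it in Tgfb2. Of 32851 such windows, 12.4% held TATAAA. Tgfb2 also held 2 CAGAC and 1 CACGTG, which were found in 42.2% and 6.02% of windows. Its ligand relative Tgfb1 instead had 5 GGGCGG (32.7% of windows) and no TATAAA, and Tgfbr2 had 1 CAGAC. None of the 4 windows held TGANTCA or GTCTAGAC, which occurred in 6.75% and 0.167% of all windows. The G and C share was 43.2% in Inhba, 53.6% in Tgfb2, 75.2% in Tgfb1 and 58.4% in Tgfbr2, against a median of 52.4%. These matches describe letters, not binding.

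No member had its highest pooled level in epithelial-like cells. The share of all genes for which this holds is not given, and most of the groups ranked were stromal or immune. Levels are UMIs pooled over the cells of a group per 1000000 UMIs (CPM), with exact 95% Poisson intervals that cover counting error only. Among the 12 classes and subsets, 5 of the 9 members had their highest pooled level in a fibroblast or pericyte subset, where 30.9% of 12233 genes did. Tgfb2 and Tgfb3 were highest in pericyte-like cells, Inhba in myCAF-like cells, and Tgfbr2 and Tgfbr3 in iCAF-like cells. Tgfb1 and Tgfbr1 were highest in macrophage-like cells, Inhbb in endothelial-like cells and Tgfbi in myeloid cluster 2. Within each model the same group was highest for 7 members. The exceptions were Tgfb2, highest in Schwann-like cells of WB1P-Myc (143 CPM, against 94.1 CPM in pericyte-like cells), and Tgfb3, highest in myCAF-like cells of WB1P (103 CPM, against 85.6 CPM in pericyte-like cells on 5 UMIs). The plot of pooled levels by class shows these peaks side by side for both models.

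**Figure D1:**
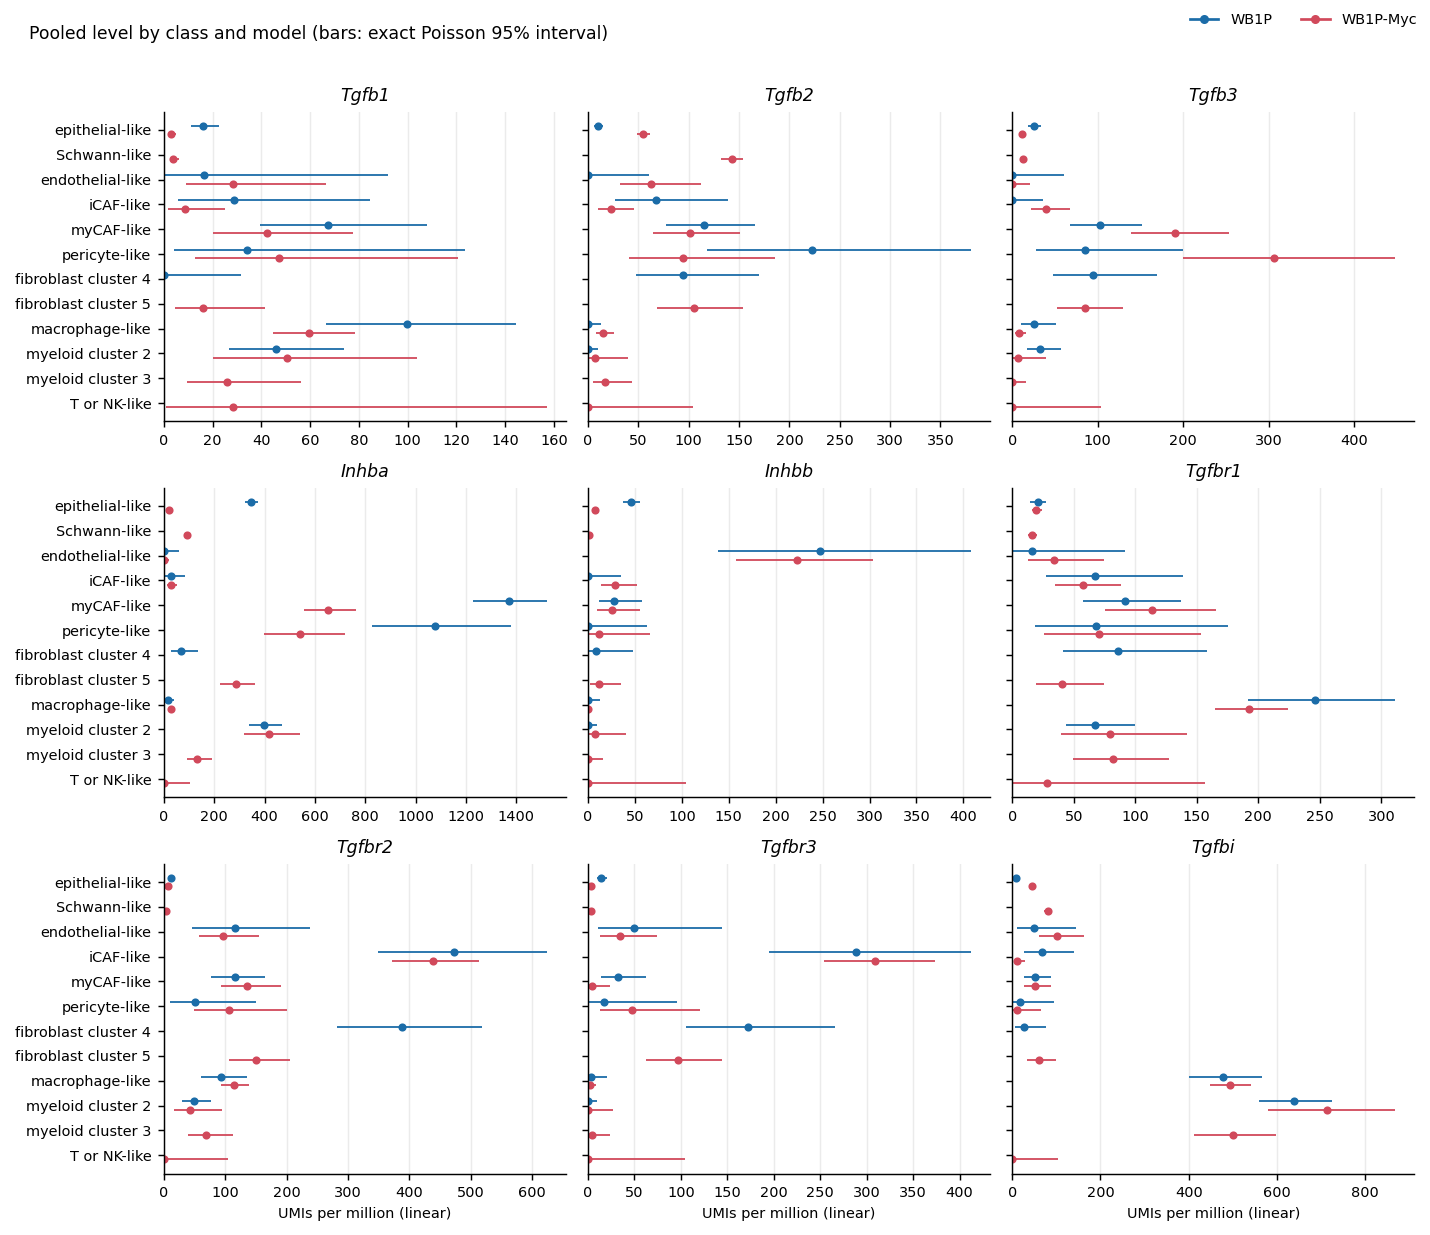
Pooled level of each member (x axis, CPM, linear, own range for each gene) by cell class or subset and model, for groups of at least 20 cells. Points are levels and bars exact Poisson 95% intervals, and Inhba reaches 1370 CPM in WB1P myCAF-like cells while Tgfbr2 and Tgfbr3 peak in iCAF-like cells of both models.

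Inhba encodes the beta A subunit of activin A and had the widest range of the family. By fraction, it was at 1025, 1367 and 1834 CPM in WB1P myCAF-like cells whereas the WB1P-Myc fractions had 602, 579, 884 and 471 CPM. In iCAF-like cells no fraction of either model was above 85.3 CPM. Every myCAF-like fraction was above every iCAF-like one. Over all genes, the share whose fractions part in this way is not given, here or in the comparisons below. Pooled over the models, the order ran from myCAF-like cells (1023 CPM, 935 to 1116) to pericyte-like cells (760 CPM, 624 to 917), myeloid cluster 2 (403 CPM) and fibroblast cluster 5 (339 CPM). Within each model the intervals of myCAF-like and pericyte-like cells overlapped (1229 to 1522 and 829 to 1380 CPM in WB1P, 555 to 765 and 396 to 721 CPM in WB1P-Myc), and WB1P fraction 3 of pericyte-like cells, at 1996 CPM, was above every myCAF-like fraction. That fraction held 51 of the 63 WB1P pericyte-like UMIs, and without it the level was 365 CPM. Pooled, myeloid cluster 2 and fibroblast cluster 5 overlapped. Below them, myeloid cluster 3 (132 CPM), fibroblast cluster 4 (105 CPM) and Schwann-like cells (91.9 CPM) overlapped in turn. Epithelial-like cells have no single place in this order, since their pooled 116 CPM joins 348 CPM in WB1P with 18.5 CPM in WB1P-Myc. The iCAF-like (28.7 CPM) and macrophage-like cells (26.9 CPM) followed. No Inhba UMI was seen in 109 endothelial-like cells, which allows up to 12.7 CPM at 3 counts.

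An Inhba UMI was seen in a majority of myCAF-like cells, with an uneven spread of UMIs among them. In WB1P, 49 of 78 myCAF-like cells had an Inhba UMI (62.8%, 51.1 to 73.5, exact binomial) and in WB1P-Myc 29 of 56 (51.8%, 38.0 to 65.3). The share was 2.78% and 2.49% in macrophage-like cells, at median depths of 1312.5 and 1494 UMIs against 2812.5 and 4089 in myCAF-like cells. After thinning every cell to 600 UMIs, 30.8% and 21.4% of myCAF-like cells kept an Inhba UMI. The 10 highest cells held 67.0% of Inhba UMIs in WB1P myCAF-like cells, and without them the level was 559 CPM. In pericyte-like cells they held 92.1% in WB1P and 91.3% in WB1P-Myc. Without them the pericyte-like levels were 119 and 59.1 CPM, so the rank of that subset rests on few cells. In myeloid cluster 2, the 58 UMIs of WB1P-Myc came from 5 of 92 cells, and the 147 UMIs of WB1P from 34 of 187 cells.

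Tgfb3 encodes TGF-beta 3, a ligand known from palate and mammary development. Pericyte-like cells had 216 CPM (147 to 307) pooled and the myCAF-like subset 145 CPM (113 to 183), with overlapping intervals, and fibroblast clusters 4 and 5 had 98.6 and 86.5 CPM. Between fibroblast cluster 5 and iCAF-like cells (30.9 CPM) the intervals parted. By fraction, WB1P myCAF-like cells had 163, 59.0 and 93.3 CPM and those of WB1P-Myc 344, 90.5, 158 and 202 CPM. The iCAF-like fractions were all at 0 in WB1P, a limit of 28.9 CPM, and at 10.7, 114, 33.2 and 15.4 CPM in WB1P-Myc, where the second fraction overlapped the myCAF-like values. No UMI was found in 109 endothelial-like or 101 myeloid cluster 3 cells, with limits of 12.7 and 12.8 CPM.

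Tgfb2 encodes a ligand that depends on the co-receptor Tgfbr3 for high-affinity binding. It was spread over pericyte-like (146 CPM, 90.6 to 224), Schwann-like (143 CPM, 132 to 154), fibroblast cluster 5 (123 CPM) and myCAF-like cells (108 CPM), and none of these neighbours parted from the next. Macrophage-like cells were at 11.3 CPM. Epithelial-like and iCAF-like cells differed in order between the models, with 9.81 and 67.4 CPM in WB1P and 54.8 and 22.9 CPM in WB1P-Myc. In WB1P-Myc 64.5% of the 1030 Tgfb2 UMIs came from Schwann-like cells and 25.9% from epithelial-like cells. In WB1P, with 91 UMIs, the largest share was 31.9% from myCAF-like cells.

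Tgfb1, the ligand most often tied to immune cells and platelets, was low throughout, with 228 UMIs. Macrophage-like cells were highest at 69.4 CPM (55.1 to 86.4), ahead of myCAF-like cells (55.2 CPM) and myeloid cluster 2 (47.2 CPM) with overlapping intervals. Epithelial-like and Schwann-like cells were at 6.94 and 3.87 CPM. No UMI was seen in fibroblast cluster 4, a limit of 18.5 CPM.

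Inhbb encodes the beta B subunit, which forms activin B. Endothelial-like cells stood apart at 229 CPM (172 to 299), and the next, myCAF-like cells, at 26.6 CPM (14.2 to 45.5), did not overlap them. Within WB1P the next were epithelial-like cells at 45.6 CPM. WB1P endothelial-like fractions had 0, 398, 105 and 220 CPM, the first from 1 cell, and WB1P-Myc fractions 237, 171, 361 and 157 CPM. The models overlapped there, at 248 CPM in WB1P and 222 CPM in WB1P-Myc. Among 661 macrophage-like cells no Inhbb UMI was seen, a limit of 2.60 CPM.

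The receptors divided between the fibroblast subsets and the myeloid cells. Tgfbr2, the ligand-binding receptor, was at 446 CPM (387 to 512) in iCAF-like cells and 357 CPM (271 to 462) in fibroblast cluster 4, which overlapped. It then dropped, past a gap between intervals, to 130 CPM in fibroblast cluster 5, 125 CPM in myCAF-like and 108 CPM in macrophage-like cells, and to 8.10 and 2.80 CPM in epithelial-like and Schwann-like cells. By fraction, iCAF-like cells had 463, 576 and 395 CPM in WB1P and 437, 384, 532 and 324 CPM in WB1P-Myc. The myCAF-like fractions had 81.5, 138 and 124 CPM and, in WB1P-Myc, 322, 109, 66.0 and 101 CPM. Only the first WB1P-Myc fraction of myCAF-like cells came near the iCAF-like range, and it still lay below every iCAF-like fraction.

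Tgfbr3, or betaglycan, presents TGF-beta ligands and inhibin to the other receptors. It was at 305 CPM (256 to 360) in iCAF-like cells, 154 CPM in fibroblast cluster 4, 99.8 CPM in fibroblast cluster 5 and 18.4 CPM in myCAF-like cells. The iCAF-like interval was clear of both clusters when pooled, but overlapped them within WB1P (195 to 413 against 105 to 266 and 41.4 to 246 CPM). WB1P iCAF-like fractions had 347, 288 and 237 CPM and WB1P-Myc fractions 384, 313, 307 and 201 CPM. No myCAF-like fraction of either model was above 46.6 CPM, so the subsets did not overlap. A Tgfbr3 UMI was seen in 17 of 48 WB1P (35.4%) and 59 of 109 WB1P-Myc (54.1%) iCAF-like cells, against 0.556% and 0.416% of macrophage-like cells. After thinning to 600 UMIs the iCAF-like shares were 10.4% and 13.8%. In 157 iCAF-like cells of both models 50 had UMIs of both Tgfbr2 and Tgfbr3, 41 of Tgfbr2 only and 26 of Tgfbr3 only, and in 134 myCAF-like cells 1 had both.

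Tgfbr1, the signalling type I receptor, had a different profile from the other receptors. Macrophage-like cells led at 206 CPM (180 to 234) and when pooled no interval below overlapped theirs. Within WB1P-Myc theirs (165 to 224 CPM) overlapped those of myCAF-like cells (75.1 to 166 CPM) and fibroblast cluster 4 (23.6 to 222 CPM). Within WB1P theirs (191 to 311 CPM) overlapped those of 3 groups of few cells. These were fibroblast cluster 5 (30.5 to 220 CPM, 9 cells), T or NK-like cells (0 to 321 CPM, 10 cells) and myeloid cluster 3 (2 cells). Then myCAF-like cells followed at 102 CPM, and the groups from there to iCAF-like cells at 59.6 CPM overlapped in turn. Tgfbi, a secreted matrix protein named for its induction by TGF-beta, was highest in the 3 myeloid groups: 659 CPM (590 to 733) in myeloid cluster 2, 494 CPM in myeloid cluster 3 and 489 CPM in macrophage-like cells, ahead of 89.0 CPM in endothelial-like and 80.5 CPM in Schwann-like cells. In WB1P 57.0% of the 414 Tgfbi UMIs came from myeloid cluster 2 and 32.4% from macrophage-like cells. In WB1P-Myc 33.5% came from macrophage-like and 29.1% from Schwann-like cells.

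The study's main division of the fibroblasts is into iCAFs and myCAFs, which it located in these tumours by its own gene signatures. The iCAF-like and myCAF-like subsets were named from separate marker lists, so they need not match the study's groups. Markers leading in iCAF-like cells included Clec3b, Dpt and Pi16. The paper links Dpt and Pi16 to a population of normal fibroblasts, and whether the subset holds such cells was not tested. Members were called on both sides of the split. The ligand genes Inhba, Tgfb1, Tgfb2 and Tgfb3 were higher in myCAF-like cells and the receptors Tgfbr2 and Tgfbr3 in iCAF-like cells, while Inhbb, Tgfbr1 and Tgfbi were not called. A gene was called higher or lower where the CPM ratio was at least 2-fold and its exact conditional binomial 95% interval on the log2 scale held no 0, given at least 20 UMIs in both groups together. All 9 members had enough UMIs; 2 were higher in iCAF-like cells, where 8.56% of 5785 genes were, and 4 were lower, where 9.61% were. With trimmed mean of M-values (TMM) scaling factors 10.3% of genes were higher and 7.68% lower. The member median of the log2 ratio was -1.07 and that of all genes -0.10. The clustering that made the subsets used these genes, and Inhba was among the 10 genes of highest fold in the myCAF-like cluster. A clustering from which members and pathway genes were left out is therefore given beside the values.

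In iCAF-like cells Inhba was at 28.7 CPM (13 UMIs), against 1023 CPM (500 UMIs) for the myCAF-like subset. Its log2 ratio was -5.16 (-6.07 to -4.37), and -5.14 when clustered without the pathway genes. Tgfb3 had a ratio of -2.23 (-3.17 to -1.39), Tgfb1 of -2.06 (-3.63 to -0.75) on 6 and 27 UMIs, and Tgfb2 of -1.71 (-2.64 to -0.86). Without the pathway genes in the clustering these were -2.13, -2.15 and -1.56. Over both models the fractions of Tgfb1 and Tgfb2 overlapped. The highest iCAF-like fraction was at 86.8 CPM for each, and the lowest myCAF-like fractions were at 0 and 64.4 CPM. The Tgfb1 ratio was -3.11 without WB1P fraction 2, which held 3 of the 6 iCAF-like UMIs, all in 1 cell. Without WB1P-Myc fraction 2, which held 8 of the 14 iCAF-like UMIs of Tgfb3 and 6 of the 13 of Inhba, their ratios were -3.28 and -5.88. The same 4 ligand genes were lower and the same receptors higher in that clustering, in which 131 of the 134 myCAF-like cells and 148 of the 157 iCAF-like cells had the same name. Its iCAF-like cluster held 183 cells, so 80.9% of them were iCAF-like before. On the receptor side Tgfbr3 had a ratio of 4.05 (3.08 to 5.21) and Tgfbr2 of 1.84 (1.42 to 2.28), or 3.94 and 1.84 without the pathway genes. Sizes moved more under other settings. The Tgfbr3 ratio was 2.48 without the upper gene limit, 2.44 at the study's fibroblast resolution of 0.3 and 2.11 in the MiSeq tables, and remained called. The MiSeq tables bear the same fraction names, were clustered on their own and share 59 barcodes with the HiSeq tables, so they hold largely other barcodes. The Inhba ratio was -3.56 with the 2000 most variable genes. In the MiSeq tables, with 54 iCAF-like and 74 myCAF-like cells, Tgfbr2 (0.79, -0.04 to 1.61) and Tgfb3 (-1.09, -2.68 to 0.26) were not called, and Tgfb1 and Tgfb2 had too few UMIs. Tgfbr1 (-0.78, -1.51 to -0.08), Tgfbi (-1.07, -2.25 to 0.00) and Inhbb (-0.27, -1.62 to 1.04) were not called.

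**Figure D2:**
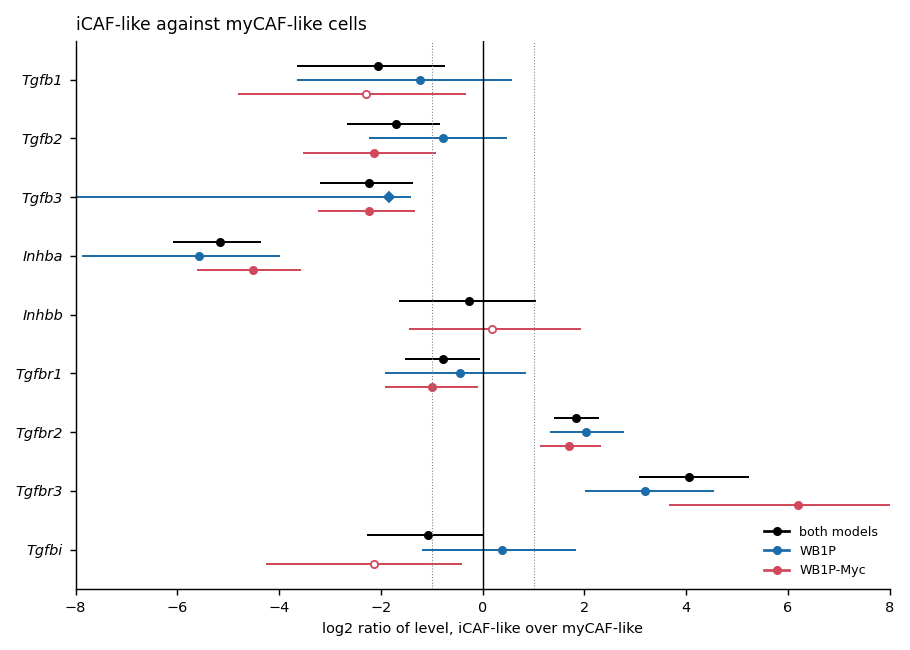
log2 ratio of the level in iCAF-like over myCAF-like cells for each member, over both models and within each. Bars are exact conditional binomial 95% intervals, cut at the axis ends, dotted lines mark 2-fold, open symbols have under 20 UMIs and diamonds are bounds against a count of 0. Inhba lies at -5.16 and Tgfbr3 at 4.05 over both models, and both keep their side in each model.

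Within each model the sides held for Inhba, Tgfb3, Tgfbr2 and Tgfbr3. Inhba had ratios of -5.57 in WB1P and -4.51 in WB1P-Myc, Tgfbr2 of 2.04 and 1.70, and Tgfbr3 of 3.19 and 6.20, the last from 108 against 1 UMI. Tgfb3 was at least 3.57-fold lower in WB1P iCAF-like cells, where it had no UMI, and had a ratio of -2.24 in WB1P-Myc. Tgfb2 was called in WB1P-Myc (-2.14) but not in WB1P (-0.77, -2.21 to 0.45), and Tgfb1 had too few UMIs in WB1P-Myc and a ratio of -1.22 (-3.64 to 0.57) in WB1P. In WB1P 10.2% of 2859 genes were called higher and 15.7% lower in iCAF-like cells, and in WB1P-Myc 8.52% and 8.94% of 4295. Whether the ratios differ between the models was not tested. Against pericyte-like cells, none of the 7 members with enough UMIs was called in myCAF-like cells, where 6.84% of 4534 genes were higher and 4.87% lower, and the Inhba ratio there was 0.43 (0.13 to 0.74).

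**Figure D3:**
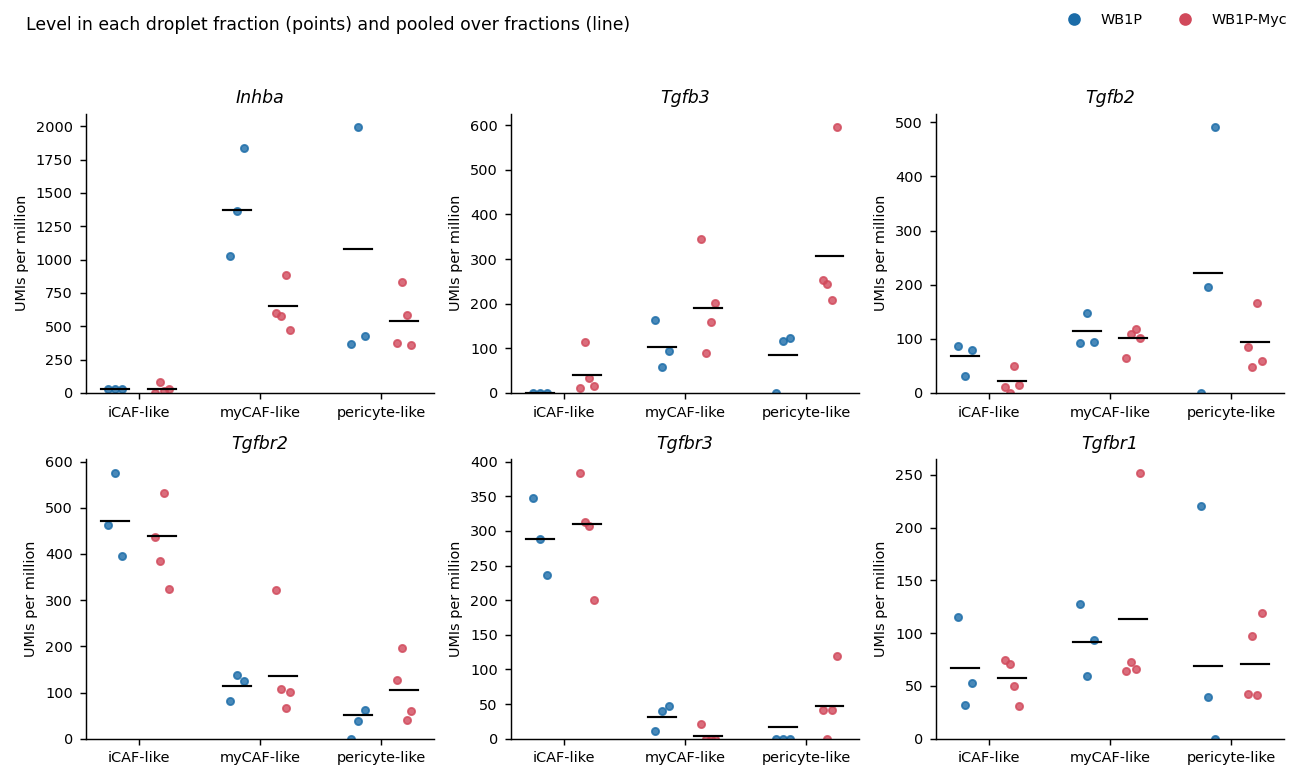
Level of 6 members (y axis, CPM, linear from 0) in each droplet fraction (points) of the 3 named fibroblast subsets by model, with the level pooled over fractions as a line. WB1P fraction 1 of pericyte-like cells (2 cells) is left out of the points but not of the line. The Inhba points of myCAF-like cells (471 to 1834 CPM) all lie above those of iCAF-like cells, and the Tgfbr3 points of iCAF-like cells (201 to 384 CPM) all lie above those of myCAF-like cells.

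Of the 46 other pathway genes 29 had enough UMIs in these subsets, 7 were higher and 6 lower in iCAF-like cells, where 8.56% and 9.61% of all genes tested were, and their median log2 ratio was -0.04. Among latency and release genes, iCAF-like cells had more of the latent TGF-beta binding proteins Ltbp1 (155 against 8.18 CPM, log2 ratio 4.24), Ltbp4 (2.21) and Ltbp3 (1.07), which hold the ligand in the matrix. The integrin subunit Itgav (-1.10) and thrombospondin Thbs1 (521 against 1540 CPM, -1.56), which take part in release, were lower. Both receptors of the list with enough UMIs, the activin receptor Acvr2a (1.89) and Acvrl1 (1.22), a type I receptor known from endothelium, were higher. The follistatin-like activin antagonist Fstl3 was lower (-1.99). Of the SMAD group, the co-repressor Ski was higher (1.64) and Pmepa1, a TGF-beta-induced feedback inhibitor, was lower (508 against 1248 CPM, -1.30). Of the common target genes, Ctgf (135 against 830 CPM, -2.62) and Tagln (19.9 against 1405 CPM, -6.14) were lower and Cyr61 higher (1.02). Tagln, an actin-binding smooth muscle protein, is also one of the markers that named the myCAF-like subset, so its ratio is not independent of the naming.

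The models were compared within fibroblast-like cells without the pericyte-like subset (177 WB1P and 216 WB1P-Myc cells). No member was called higher in WB1P-Myc, where 3.90% of 7224 genes were, and 2 of 9 were called lower, where 2.52% were (3.21% and 3.32% with TMM factors). Inhba was at 548, 843 and 833 CPM in the WB1P fractions while WB1P-Myc fractions had 181, 330, 347 and 238 CPM. The fractions did not overlap, and the pooled levels of 737 and 278 CPM gave a log2 ratio of -1.40 (-1.64 to -1.17). In the MiSeq tables the Inhba ratio was -0.56 (-1.08 to -0.06) and not called. Tgfb1 was at 41.9 CPM (22 UMIs) and 19.3 CPM (17 UMIs), a ratio of -1.12 (-2.12 to -0.14), and its fractions (27.4 to 52.7 and 0 to 26.3 CPM) did not overlap by a small margin. The Tgfb1 call was lost under 6 of 20 alternatives, among them leaving out WB1P fraction 3, WB1P fraction 4 or WB1P-Myc fraction 1 (down to -0.75).

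The subsets were not equally common in both models. Of these fibroblast-like cells, 78 of 177 were myCAF-like in WB1P and 56 of 216 in WB1P-Myc. Within myCAF-like cells Inhba was at 1370 and 654 CPM, a log2 ratio of -1.07 (-1.35 to -0.79), and every WB1P fraction (1025 to 1834 CPM) was above every WB1P-Myc fraction (471 to 884 CPM). In this comparison 5.17% of 3731 genes were called higher and 4.05% lower, and the Inhba ratio fell short of a call without WB1P fraction 4 (-0.89) or WB1P-Myc fraction 4 (-0.94). Within iCAF-like cells both models were at 28.9 and 28.6 CPM, on 3 and 10 UMIs, and in fibroblast cluster 4 WB1P-Myc was the higher, at 195 against 68.9 CPM on 9 and 8 UMIs. Without the 10 highest cells of each model, the myCAF-like levels were 559 and 226 CPM. In pericyte-like cells Tgfb3 was called higher in WB1P-Myc, at 306 against 85.6 CPM (26 and 5 UMIs; ratio 1.84, 0.43 to 3.57), where 4.77% of 1216 genes were and 7.40% were lower, but not without WB1P-Myc fraction 4 (1.45, -0.06 to 3.26). Inhba was at 541 against 1078 CPM there and not called. It was called lower without any 1 of 5 other fractions (-1.30 to -1.04), whereas without WB1P fraction 3 it was at 541 against 365 CPM (0.57, -0.37 to 1.62).

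Of 32 other pathway genes with enough UMIs in fibroblast-like cells, 2 were higher and 1 lower, against 3.90% and 2.52% of all genes tested. The binding protein Ltbp1 (80.7 against 30.5 CPM, log2 ratio 1.40) and the immediate target Klf10 (1.08) were higher in WB1P-Myc, and Furin, a protease that processes the ligand precursors, was lower (-1.20). The median ratio of the 32 was 0.07 and that of all genes 0.08.

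In macrophage-like cells none of the 5 members with enough UMIs was called in either direction, where 4.89% of 6464 genes were called higher and 2.89% lower in WB1P-Myc (3.39% and 3.93% with TMM factors). Tgfbi was at 478 CPM in WB1P and 493 CPM in WB1P-Myc (log2 ratio 0.05, -0.24 to 0.34), Tgfbr1 at 246 and 193 CPM (-0.35, -0.77 to 0.07) and Tgfbr2 at 92.7 and 114 CPM (0.29, -0.34 to 0.98). The Tgfbr2 ratio was 0.80 without WB1P fraction 3. Tgfb1 was at 99.8 and 59.6 CPM (-0.74, -1.43 to -0.03) and Inhba at 17.8 and 29.8 CPM (0.74, -0.66 to 2.48), or 17.8 and 16.6 CPM without WB1P-Myc fraction 1, which held 15 of the 26 UMIs. Over the whole immune class, which held 187 WB1P and 92 WB1P-Myc cells of myeloid cluster 2, the Inhba ratio had the other sign (-1.35, at 229 and 89.9 CPM) and was called lower in WB1P-Myc. Leaving out WB1P fraction 2, the lowest WB1P fraction with more than 2 cells, brought Tgfb1 to -1.03 and a call. Of 19 pathway genes with enough UMIs, the target Bhlhe40, a transcriptional repressor, was lower (57.3 against 128 CPM, -1.16) and none was higher.

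Among the myeloid cells Inhba and the receptors Tgfbr1 and Tgfbr2 had opposite profiles over both models pooled. The clustering that made these groups used the members, and no ratio between the groups is given from the clustering without them. Inhba was at 403 CPM in myeloid cluster 2 and 26.9 CPM in macrophage-like cells (log2 ratio 3.91, 3.36 to 4.50), with ratios of 4.48 in WB1P and 3.81 in WB1P-Myc. Tgfbr1 (-1.54, -2.09 to -1.03) and Tgfbr2 (-1.20, -1.90 to -0.56) were lower in myeloid cluster 2, where 4.15% of 7519 genes were higher and 8.14% lower. Without WB1P-Myc fraction 1 the Inhba ratio was 4.54. Within the models Tgfbr1 had ratios of -1.86 in WB1P and -1.28 in WB1P-Myc, both called. Tgfbr2 was called in WB1P-Myc (-1.39, on 6 UMIs in myeloid cluster 2) but not in WB1P (-0.93, -1.88 to -0.01). Its WB1P-Myc fractions were at 26.4, 51.0, 76.1 and 0 CPM in myeloid cluster 2. In macrophage-like cells they were at 139, 120, 95.5 and 99.2 CPM, so this call rests on few counts. In WB1P 4.68% of 4381 genes were higher and 6.96% lower, and in WB1P-Myc 4.76% and 5.06% of 6087. By fraction, Inhba in myeloid cluster 2 was at 500, 557 and 118 CPM in WB1P and at 528, 0, 964 and 0 CPM in WB1P-Myc, so that the WB1P-Myc level rested on 2 fractions. The summed level of 12 fibroblast markers in myeloid cluster 2 was 233 CPM in WB1P and 281 CPM in WB1P-Myc, with 3 and 4 of them at 0, against 328 and 217 CPM in macrophage-like cells and 41839 and 42932 CPM in myCAF-like cells. Their part in the Inhba level of this cluster was not tested.

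Of the 3 classes compared, the epithelial-like cells had the most members called between the models. Inhba, Inhbb, Tgfb1, Tgfb3 and Tgfbr3 were lower in WB1P-Myc and Tgfb2 and Tgfbi higher, so 5 and 2 of the 9 members were called where 15.5% and 16.2% of 12015 genes were called in those directions. The member median was -1.18 on the log2 scale and that of all genes 0.03. The models lay in different clusters: cluster 4 held 653 of the 673 WB1P cells and cluster 1 held 1303 of the 1312 WB1P-Myc cells. Epithelial markers also differed, with a summed level of 6075 CPM over 14 markers in WB1P and 2273 CPM in WB1P-Myc.

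Inhba was at 325, 328, 147 and 536 CPM in the WB1P fractions while WB1P-Myc fractions had 15.4, 26.7, 21.7 and 10.3 CPM. Every WB1P fraction was above every WB1P-Myc fraction. With pooled levels of 348 and 18.5 CPM the comparison gave a ratio of -4.24 (-4.57 to -3.92), and the range over 20 alternatives was -4.76 to -2.68. A UMI was found in 105 of 673 WB1P cells (15.6%) and 44 of 1312 WB1P-Myc cells (3.35%), or in 8.47% and 1.75% after thinning. The most in a single WB1P cell was 160 UMIs, and the 10 highest cells held 59.9% of the 709 UMIs. Without the 10 highest cells of each model, levels were 144 and 8.51 CPM. Fibroblast markers in epithelial-like cells summed to 1184 CPM in WB1P and 879 CPM in WB1P-Myc over 12 markers, none at 0, against 41839 and 42932 CPM in myCAF-like cells; their part in the Inhba difference was not tested.

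Inhbb was also lower at every fraction, with 67.2, 54.6, 45.8 and 32.8 CPM in WB1P against 5.87, 10.8, 6.08 and 6.89 CPM in WB1P-Myc. Pooled, it was at 45.6 and 7.39 CPM (log2 ratio -2.63, -3.22 to -2.06), with a range over 20 alternatives of -3.34 to -2.0. The ligands Tgfb1 (16.2 and 3.08 CPM, -2.39, -3.38 to -1.47) and Tgfb3 (25.5 and 11.3 CPM, -1.18, -1.75 to -0.60) and the co-receptor Tgfbr3 (14.2 and 3.49 CPM, -2.03, -2.98 to -1.12) were low in both models and lower in WB1P-Myc. Fractions of the models overlapped for Tgfb3, which went down to 14.7 CPM in WB1P and up to 16.7 CPM in WB1P-Myc. They also overlapped for Tgfbr3, at 0 CPM in WB1P fraction 1. Without WB1P fraction 4, which held 19 of the 33 WB1P UMIs of Tgfb1, the Tgfb1 ratio was -1.73. The Tgfb3 call was lost under 5 of 20 alternatives, leaving out WB1P fraction 4 or WB1P-Myc fraction 1 among them. Tgfbr1 was at 20.6 and 19.7 CPM (-0.06, -0.60 to 0.49) and Tgfbr2 at 11.8 and 6.57 CPM (-0.84, -1.65 to -0.02), neither called, though Tgfbr2 was called lower under 6 of 19 alternatives, leaving out WB1P fraction 2, WB1P-Myc fraction 3 or WB1P-Myc fraction 4 among them (down to -1.33). In the MiSeq tables Tgfbr1 was called lower (-1.42, -2.53 to -0.41).

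Tgfb2 and Tgfbi went the other way. Tgfb2 was at 0, 17.7, 9.17 and 2.98 CPM in the WB1P fractions and the WB1P-Myc fractions had 69.0, 54.2, 58.2 and 35.3 CPM, without overlap. The pooled levels of 9.81 and 54.8 CPM gave a ratio of 2.48 (1.83 to 3.22). It was 3.35 without WB1P fraction 2, which held 13 of the 20 WB1P UMIs, and 1.74 at a clustering resolution of 0.6. Schwann markers summed to 127 CPM in WB1P and 388 CPM in WB1P-Myc epithelial-like cells over 10 markers, against 3381 CPM in Schwann-like cells. Their part in the Tgfb2 difference was not tested. Tgfbi was at 8.34 and 44.1 CPM (2.40, 1.69 to 3.21), with WB1P fractions from 4.47 to 11.2 CPM and WB1P-Myc fractions from 32.3 to 59.2 CPM. Without the upper gene limit the Tgfbi ratio was 1.02, still called, and in the MiSeq tables it was 1.04 (-0.04 to 2.21) and not called. Macrophage markers summed to 342 CPM in WB1P and 354 CPM in WB1P-Myc epithelial-like cells over 10 markers; their part in the Tgfbi difference was not tested.

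**Figure D4:**
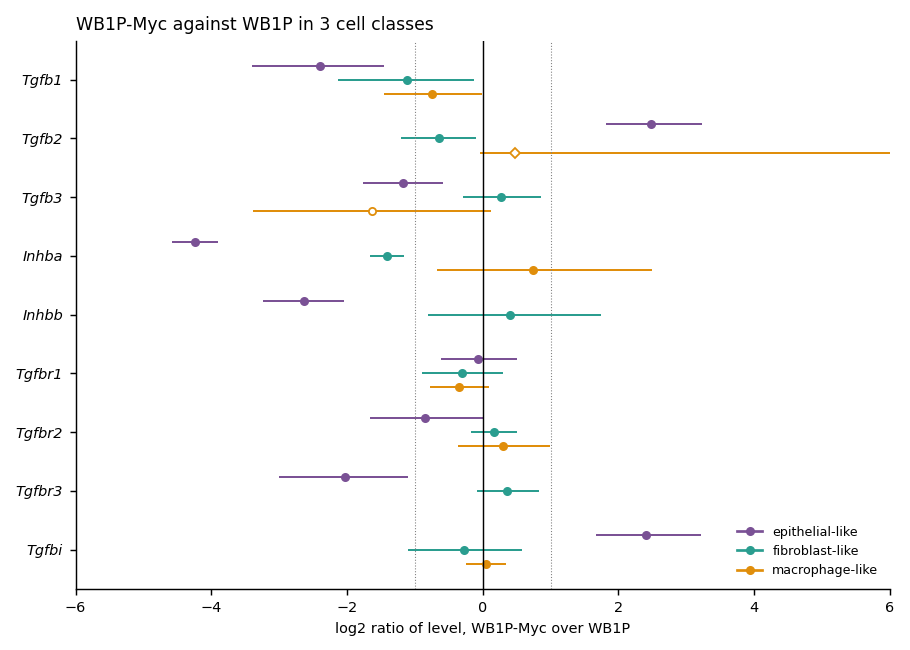
log2 ratio of the level in WB1P-Myc over WB1P for each member in epithelial-like, fibroblast-like and macrophage-like cells. Bars are exact conditional binomial 95% intervals, cut at the axis ends, dotted lines mark 2-fold, open symbols have under 20 UMIs and the diamond is a bound against a count of 0. In epithelial-like cells Inhba lies at -4.24 and Tgfb2 at 2.48, and in macrophage-like cells no member is called.

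Schwann-like cells of WB1P-Myc had higher Tgfb2 and Inhba than the epithelial-like cells of the same model. The clustering that parted these groups used the members, and no ratio between them is given from the clustering without members. Tgfb2 was at 143 against 54.8 CPM (log2 ratio 1.38, 1.18 to 1.59) and Inhba at 91.9 against 18.5 CPM (2.31, 1.98 to 2.66). Inhbb (-2.29) and Tgfbr2 (-1.23) were lower in them, where 11.2% of 12695 genes were higher and 11.3% lower. Without fraction 4 the Tgfbr2 call was lost (-0.63), and without fraction 1 the Inhbb ratio was -3.11. The boundary between these cells and the epithelial-like ones moved with the settings of the clustering. In the main setting 1312 WB1P-Myc cells were epithelial-like and 1133 Schwann-like. Clustered without the members and pathway genes, 664 were epithelial-like and 1788 Schwann-like, the latter beside 18 WB1P cells. At resolution 0.6, 502 were epithelial-like and 1064 Schwann-like, and 624 and 255 lay in unnamed clusters. With Schwann-like cells counted as WB1P-Myc epithelium, all 7 calls between the models had the same direction (16.6% of 13263 genes were then higher and 13.6% lower), with Inhba at -2.68, Tgfb2 at 3.32 and Tgfbi at 2.89, and Tgfbr2 was called lower as well (-1.32).

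Of 39 other pathway genes with enough UMIs in epithelial-like cells, 13 were lower and 3 higher in WB1P-Myc, where 15.5% and 16.2% of all genes tested were. Their median log2 ratio was -0.51, against 0.03 for all genes. The lower genes with the most UMIs were the matrix protein Fn1 (266 against 1038 CPM, -1.96), the feedback inhibitors Pmepa1 (155 against 399.8 CPM, -1.37) and Skil (-1.09), the repressor Bhlhe40 (44.3 against 204 CPM, -2.20), Thbs1 (22.2 against 112 CPM, -2.34) and the binding protein Ltbp3 (17.8 against 90.7 CPM, -2.35). By group, 4 of 9 latency genes, 4 of 10 SMAD genes, 2 of 5 receptors, 2 of 10 target genes and 1 of 5 other ligands and antagonists were lower. Higher were Ltbp4 (1.23), Mstn (myostatin, at least 4.46-fold, with 32 UMIs against 0) and Col1a1 (150 against 57.4 CPM, 1.39). Col1a1 is a fibroblast marker and, per the study's methods, the locus that carries the Myc construct.

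**Figure D5:**
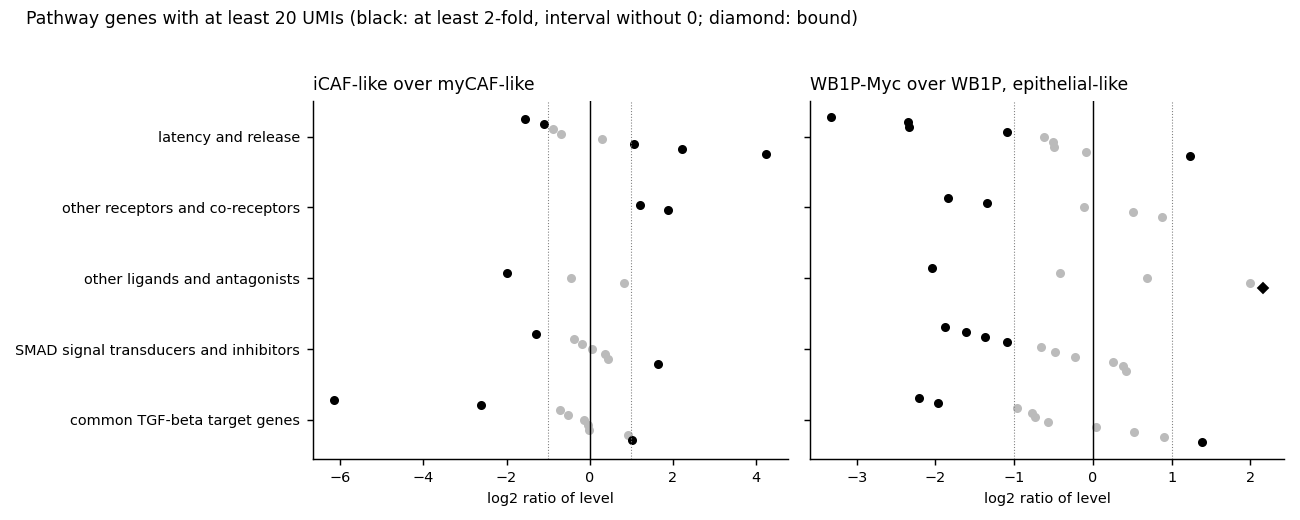
log2 ratios of the other pathway genes with at least 20 UMIs, by group, for iCAF-like over myCAF-like cells and for WB1P-Myc over WB1P epithelial-like cells. Black symbols were called, grey ones were not, the diamond is a bound against a count of 0, and dotted lines mark 2-fold. In the epithelial-like cells 13 called genes lie left of 0 and 3 right of it.

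For each member the genes with the most similar profile were taken over 19 groups of at least 20 cells (class or subset by model), by Pearson correlation of log2(CPM + 10) among 10290 genes with at least 100 UMIs. The groups share libraries and differ in depth, so these are descriptions. Tgfbr3 was closest to Adamts5 (0.94), a matrix protease, then Gadd45g (0.90) and Il1r1 (0.89), and Tgfbr2 to Rnf19b (0.88), Gas6 (0.88) and Igfbp4 (0.87). Inhba was closest to Mical1 (0.85), P4ha1 (0.83), a collagen prolyl hydroxylase subunit, and Pla2g4a (0.80), and Tgfb3 to Loxl3 (0.88), a lysyl oxidase, Sema5a (0.86) and Gpr176 (0.86). Tgfb2 was closest to Ptov1 (0.87), Cryab (0.87) and Tubb2b (0.86), and Tgfb1 to Ppp1r18 (0.82), Crlf2 (0.80) and Cd97 (0.78). Inhbb was nearest to Slc9a3r2 (0.92), Stmn2 (0.91) and Abcg2 (0.88). Tgfbr1 was nearest to Ptplad2 (0.88), Maf (0.88) and Eea1 (0.83), and Tgfbi to the chemokine receptor Ccr2 (0.90), Tbxas1 (0.90) and Mfsd12 (0.90).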

How the data were processed

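The authors deposited raw UMI counts per gene and barcode, made with dropseq-tools, 1 table per droplet fraction and instrument. The labels name the build mm10, and neither aligner nor annotation is given in the sources used here. HiSeq tables gave the main values. MiSeq tables carry the same fraction names but share 59 barcodes in all with the HiSeq tables (8 pairs of tables of 1000 barcodes each), so they hold largely other barcodes and were used only as an alternative. Genes in at least 3 cells and barcodes with 450 to 4000 genes and under 20% mitochondrial UMIs were kept. Cells were clustered in scanpy 1.11.5 (30 components, 20 neighbours, Leiden resolution 0.3), and fibroblast and immune cells again (40 components; resolutions 0.6 and 0.3; the study's 0.3 for fibroblasts was an alternative). Clusters were named from marker lists. No doublet was removed, and Scrublet marked 48 cells (1.00%). Levels and ratios were computed as stated beside the values, against a floor of 3 counts for a gene at 0. The ratio code was tested on simulated data. Scaling alternatives used edgeR 4.0.16 (TMM) and DESeq2 1.42.0 (median of ratios) under R 4.3.3 on counts pooled by group. The members and gene lists were chosen with earlier results of these data known. Named genes were the members, pathway genes called in a comparison (up to 6 per direction, by UMIs) and the 3 genes most like each member. The study names 2 mice per model and ties none to a fraction.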

Additional observations from a re-analysis of the deposited data

Results flagged for a closer look

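Single fractions stood apart in 5 of 43 groups of 4 fractions, by Dixon's criterion on the gap to the nearest fraction. Its chance rate of about 1 in 20 holds for normal values of equal spread. The levels here come from few UMIs in fractions of unequal size, so that rate need not apply to them. All 5 rest on few UMIs. Tgfb1 in epithelial-like cells was at 28.3 CPM in WB1P fraction 4 (19 of 33 UMIs) and between 9.17 and 11.2 CPM in the others. Tgfb3 in pericyte-like cells was at 596 CPM in WB1P-Myc fraction 4 (10 of 26 UMIs) against 208 to 252 CPM. Inhba in macrophage-like cells was at 72.0 CPM in WB1P-Myc fraction 1 (15 of 26 UMIs) against 14.9 to 18.2 CPM. In myCAF-like cells of WB1P-Myc, Tgfbr1 was at 252 CPM in fraction 4 (15 of 27 UMIs) against 64.4 to 72.4 CPM, and Tgfbr2 at 322 CPM in fraction 1 (15 of 32 UMIs) against 66.0 to 109 CPM.

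The filter removes barcodes with over 4000 genes, 40 in WB1P and 134 in WB1P-Myc. The main comparisons did not use them, and they entered only the alternative without the upper gene limit. Inhba was at 142 CPM (124 to 161; 226 UMIs) in those of WB1P and at 26.6 CPM (22.0 to 31.8; 119 UMIs) in those of WB1P-Myc.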

How the results depend on the processing

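No called value changed direction under any alternative that gave it a value. Of the counts of called members, 169 stayed within 1.5 times of the values above, 12 were lower and 2 higher. Some alternatives left a comparison with the same cells and could not change it. For iCAF-like against myCAF-like cells these were leaving out WB1P fraction 1, a limit of 10% mitochondrial UMIs, leaving out Scrublet doublets and resolution 0.6. All but the Scrublet setting left fibroblast-like cells the same too. They are among the alternatives counted. Members lower in WB1P-Myc fibroblast-like cells numbered 2, where 2.52% of all genes were. They numbered 1 without the upper gene limit (2.62% of all genes), with the 2000 most variable genes (2.57%) or with pericyte-like cells included (2.80%). They numbered 0 in the MiSeq tables (4.44%) and 1 to 2 with a fraction left out (2.29% to 3.41%). Tgfb1 was the gene lost, except in the MiSeq tables, where Inhba was lost too (-0.56). In the MiSeq tables, with 1209 cells, 1 member was higher and 1 lower in iCAF-like cells (Tgfbr3 and Inhba; 8.83% and 8.88% of all genes), and in epithelial-like cells 1 was higher and 3 lower (Tgfb2; Inhba, Inhbb and Tgfbr1; 12.9% and 17.1% of all genes). With WB1P cells only, 2 members were lower in iCAF-like cells, where 15.7% of all genes were. Members lower in WB1P-Myc macrophage-like cells ranged from 0 to 1 with a fraction left out (2.66% to 3.49% of all genes). They were 2 over the whole immune class (3.69% of all genes), Inhba and Tgfb3. Inhba, not called in macrophage-like cells (0.74), was there called lower (-1.35). Tgfb3, with too few UMIs in macrophage-like cells, was at 28.6 CPM in WB1P and 6.26 CPM in WB1P-Myc over that class (19 and 8 UMIs). Tgfbi in epithelial-like cells fell short of a call in the MiSeq tables (1.04), and Tgfbi became lower in iCAF-like cells under 4 of 21 alternatives (down to -1.54), leaving out WB1P fraction 3 or 4 among them. The cause of these changes was not tested.

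Of the levels 1131 stayed within their interval and 138 moved, and of the ratios 935 and 38. Other scalings shifted log2 ratios by at most 0.12, but with TMM factors or the median of ratios the balance of higher and lower calls over all genes turned in 3 of 4 comparisons, epithelial-like cells apart. With the median of ratios it was 9.92% and 7.90% in iCAF-like cells, 2.95% and 3.43% in fibroblast-like and 3.31% and 4.05% in macrophage-like cells. With the 2000 most variable genes no macrophage-like subset or endothelial-like cluster formed, so no value is given there. The choices of the whole immune class, of pericyte-like cells, of Schwann-like cells, of single models and of leaving out fractions within single subsets were made after seeing the data. Between the models no paired analysis was possible, because the fraction numbers name droplet fractions of different suspensions. Subsets of the same model share their fractions and could be paired by fraction. Their values were listed by fraction, but no paired test was run. Depth limits the low genes: Tgfb1 had 228 UMIs and Inhbb 221 in all cells, and intervals cover counting error only.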

Other observations

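Values of the barcodes with over 4000 genes are given here for the other members. Tgfb2 was at 10.0 CPM in WB1P and 64.6 CPM in WB1P-Myc, Tgfbi at 14.4 and 45.2 CPM, Inhbb at 48.2 and 10.5 CPM, Tgfb1 at 10.0 and 4.70 CPM, Tgfb3 at 20.7 and 12.5 CPM and Tgfbr3 at 17.5 and 3.35 CPM. Tgfbr1 was at 24.4 and 17.2 CPM and Tgfbr2 at 10.0 and 6.93 CPM. For all of these the model with the higher level was the same as in epithelial-like cells, where Tgfbr1 and Tgfbr2 were not called. The values of these barcodes are not split by class.

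Inhba and Tgfb3 UMIs were compared cell by cell. Of 134 myCAF-like cells 26 had UMIs of both Inhba and Tgfb3, 52 of Inhba only and 17 of Tgfb3 only, and of 157 iCAF-like cells 0 had both. Inhba and Tgfbr2 were both seen in 22 myCAF-like and 8 iCAF-like cells.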
